A study of Mus musculus with 4 samples.

Results

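Genes of the primary cilium and of cystic kidney disease were read in cells sorted with an antibody against kidney specific protein (KSP, the cadherin encoded by Cdh16). They were taken by symbol: the numbered Ift, Bbs and Nphp genes, and 18 genes named singly. The latter are the cilium kinesins and the heavy chain of the cilium dynein, transition zone and basal body genes, Invs, Arl13b, Tulp3 and the cystic kidney genes. With probe sets assigned to a single gene, this gave 38 genes on 65 probe sets, out of 18193 genes. Of the 18 genes named singly, 15 had such a probe set, and the other 3, Pkd2, Arl13b and Rpgrip1l, are not analysed here. Of the 38 genes, 36 passed the filter on low signal and were tested. A single gene, Bicc1, passed the test as higher in KSP-positive cells, and 0 fell, where 1.84% of all genes tested rose and 1.65% fell. The call of Bicc1 was lost under several of the alternative settings given below. The remaining 35 did not pass the test, and their differences lay between -0.36 and 0.75 on the log2 scale.

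The primary cilium is a single antenna-like projection of the plasma membrane that most kidney epithelial and mesenchymal cells carry on a modified centriole, the basal body. Intraflagellar transport (IFT) builds it: kinesin-2 motors carry IFT-B complexes and their cargo to the tip, and a dynein carries them back with IFT-A. The BBSome moves membrane proteins out of the cilium, the transition zone gates its base, and inherited faults in many of these proteins give kidney cysts together with defects of retina, brain or limbs.

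KSP-positive cells and KSP-negative cells, 2 arrays each, were derived from the mouse ES line CAG-GFP EB3 (strain 129/Ola), which makes GFP from a ubiquitous promoter. Both fractions were differentiated for 18 days with Activin at 10 ng/mL through embryoid bodies, and cells that carried GFP and had excluded a dead-cell dye were sorted by KSP staining, so that all the groups share the line, the transgene and the Activin. Total RNA was amplified in 2 cycles, labelled with biotin and hybridized to Affymetrix mouse genome arrays. The fractions are mixed populations from 1 line, collected in 2 independent experiments.

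Signals are MAS5 intensities, scaled so that each array had the same 75th percentile, and are given as log2 values. Each difference is KSP-positive minus KSP-negative. Since all RNA of a fraction was pooled, fewer cells of a type and less RNA per cell cannot be told apart. The RNA of the sort marker did not separate the fractions, with signals near the filter of 5.14, while the sort itself was by antibody staining. Cdh16 had log2 signals of 5.66 and 5.03 in KSP-positive cells, against 5.30 and 4.71 in KSP-negative cells, a difference of 0.34 (95% confidence interval -0.92 to 1.60, adjusted p = 0.816 from limma), and its ranges overlapped. Cell type markers differed widely. Of 15 macrophage markers with a probe set, Itgam and Aif1 were under the filter. Of the 13 macrophage markers tested, 12 rose, and their summed signal was 30100 and 14010 in KSP-positive cells, against 2634 and 2997 in KSP-negative cells, where C1qa was at the floor in both arrays. Of 13 mesenchymal markers, 7 rose (sums 99280 and 71630 in KSP-positive cells, against 43810 and 27480 in KSP-negative cells). Of 12 epithelial markers, 8 fell (sums 8438 and 10670, against 23670 and 29850), and of 14 pluripotent cell markers, 12 fell (sums 8210 and 8903, against 17970 and 32230). Another of the 14 was higher in KSP-positive cells without overlap, by 0.35, and was not called. The part of these shifts in the values below was not tested.

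Bicc1 encodes an RNA-binding protein, and mice that lack it develop cystic kidneys. Its scaled signals were 1400 and 1250 in KSP-positive cells, against 448 and 347 in KSP-negative cells, which are log2 signals of 10.46 and 10.29, against 8.81 and 8.44. Both KSP-positive arrays lay above both KSP-negative arrays, and the gap between the fractions was wider than that between replicates. The mean log2 signal was 10.37 ± 0.12 in KSP-positive cells and 8.62 ± 0.26 in KSP-negative cells (SD, n = 2 each). This 3.36-fold rise, a difference of 1.75 with a standard error of 0.34 (95% confidence interval 0.99 to 2.51), had an adjusted p of 0.0219 from limma over 12849 genes. Mesenchymal and macrophage markers were higher in the same arrays, and their part in Bicc1 was not tested. By size the difference ranked 1 among the cilium and cystic kidney genes and 291 among all genes. The call was lost with the values as deposited (difference 1.66, adjusted p = 0.0704 from limma) and when no filter on low signal was used (1.75, adjusted p = 0.271). It was also lost without KSP-negative replicate 2 (difference 1.56). By the methods' t-test Bicc1 had an unadjusted p of 0.0131 and an adjusted p of 0.493.

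The array holds 3 probe sets for Bicc1, and on each of them the fractions did not overlap. On 1423484_at the log2 signals were 10.34 and 9.97 in KSP-positive cells, against 8.80 and 7.57 in KSP-negative cells, a difference of 1.97 (adjusted p = 0.0695 from limma over probe sets). On 1441137_at they were 10.44 and 9.70, against 9.27 and 8.04, a difference of 1.42 (adjusted p = 0.19). KSP-negative replicate 2 was the lowest array on each of the 3 probe sets, and KSP-positive replicate 1 the highest. Tested by themselves, 54 probe sets of the cilium and cystic kidney genes gave 1 rise, that of 1436029_at for Bicc1, and 0 falls, where 0.76% of all probe sets tested rose and 0.681% fell.

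**Figure D1:**
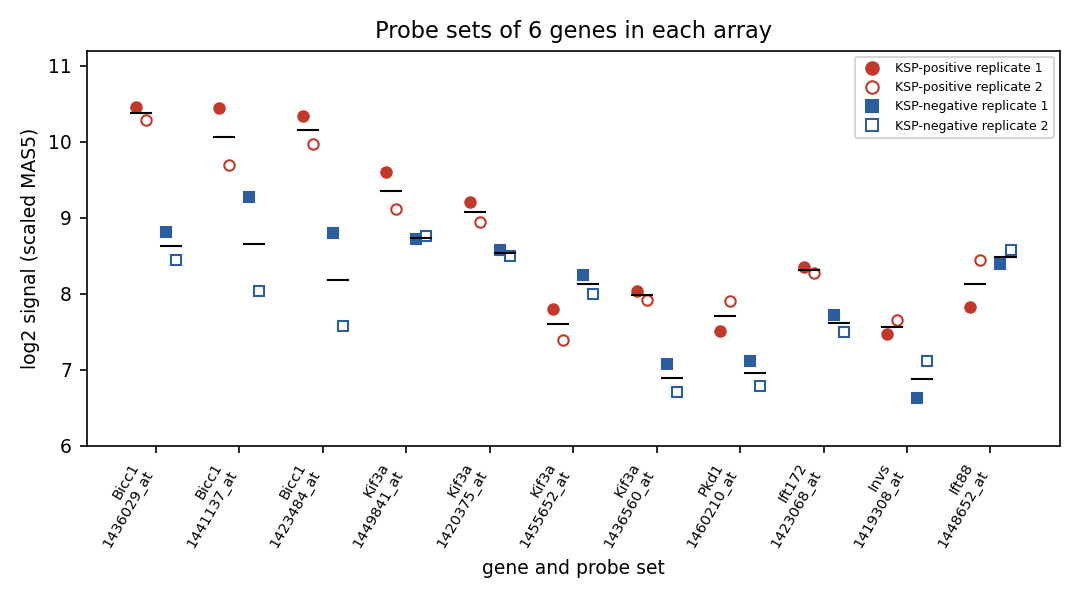
Log2 signal (scaled MAS5, vertical axis) of the probe sets over the filter for 6 genes, with 1 point for each array (red circles KSP-positive, blue squares KSP-negative, filled for replicate 1 and open for replicate 2) and a bar at the mean of each fraction. The fractions are apart on all 3 Bicc1 probe sets, while 1 of the 4 Kif3a probe sets, 1455652_at, has the KSP-positive arrays below the KSP-negative ones.

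Pkd1 encodes polycystin-1, the large membrane protein affected in most families with dominant polycystic kidney disease. It had log2 signals of 7.51 and 7.90 in KSP-positive cells, against 7.12 and 6.79 in KSP-negative cells. The fractions did not overlap, but the difference of 0.75 (95% confidence interval -0.12 to 1.62) did not pass the test (adjusted p = 0.352 from limma). Pkhd1, the gene of recessive polycystic kidney disease, encodes fibrocystin, a ciliary membrane protein of collecting ducts. Its probe set stood at the floor of 3.62 in both KSP-positive arrays and in KSP-negative replicate 1, and at 4.27 in KSP-negative replicate 2. It was under the filter, and no fold is given for it. Tmem67, which encodes the transition zone receptor meckelin, was also under the filter, at 4.19 and 4.15 in KSP-positive cells and at the floor of 3.62 in both KSP-negative arrays.

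Among all genes tested, 1.84% rose and 1.65% fell at an adjusted p under 0.05, against 1 rise and 0 falls among the 36 cilium and cystic kidney genes. At an unadjusted p under 0.05 the set again held 1 gene in the higher direction and 0 in the lower, beside 9.05% and 8.72% of all genes. Only Bicc1 was more than 2-fold higher and none was more than 2-fold lower, where 7.92% and 7.66% of all genes were. Most genes of the set thus sat close to the line of no difference: 29 of 36 (80.6%) lay within 0.5 on the log2 scale, against 56.5% of all genes, 7 were over 0.5 higher and 0 were over 0.5 lower. The precision of 2 arrays a fraction limits how far this reads. The 95% confidence interval lay wholly within a 2-fold change either way for 9 genes (25.0%, against 18.7% of all genes). It excluded a 2-fold fall for 30 genes and a 2-fold rise for 14.

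The middle of the set lay slightly above that of all genes. The median difference was 0.21 with Bicc1 and 0.21 without it, against -0.03 over all genes, with quartiles of -0.02 and 0.41, against -0.44 and 0.41. Without KSP-negative replicate 1, the array in which 20 of the 36 genes had their lowest value, the median was 0.09. That array was below KSP-negative replicate 2 in 63.0% of all genes too. Means were higher in KSP-positive cells for 24 genes and lower for 12, where 48.4% of all genes had a higher mean. In 14 genes both KSP-positive arrays lay above both KSP-negative arrays, and in 0 genes below them. Over all genes tested these shares were 24.4% above and 24.6% below. The counts changed with the scaling: with the values as deposited 5 genes lay above and 1 below (17.9% and 24.4% of all genes), and with quantile normalization 14 lay above and 0 below. The median of all genes was -0.12 with the values as deposited, and that of the cilium and cystic kidney genes 0.12.

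**Figure D2:**
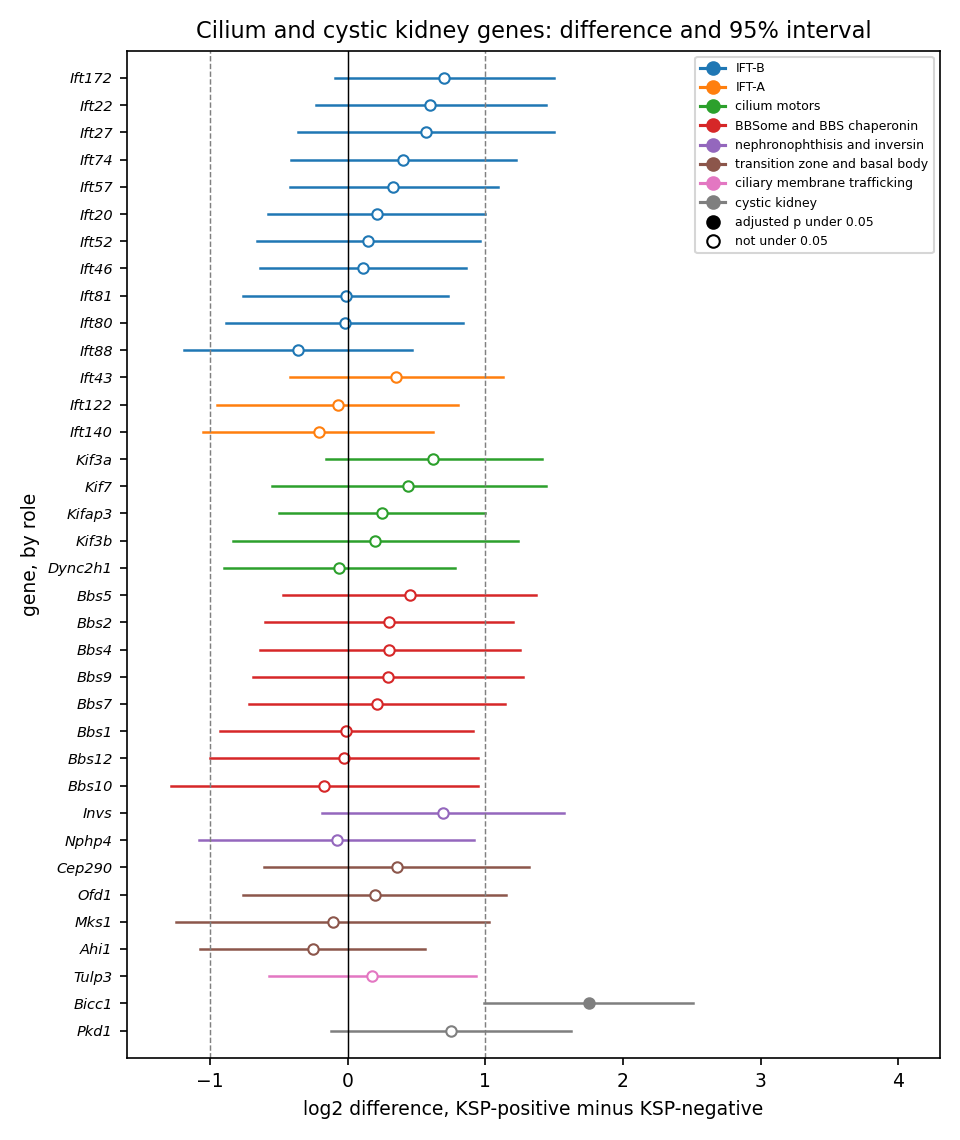
Log2 difference, KSP-positive minus KSP-negative, of the 36 genes tested (points) with its 95% confidence interval from limma (lines), grouped and coloured by role, with dashed lines at a 2-fold change. Bicc1, the single filled point, has an adjusted p under 0.05, and the other 35 intervals all include 0.

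The 11 IFT-B genes had a median difference of 0.21, with 4 higher without overlap (36.4%, against 24.4% of all genes), 7 overlapping and 0 past the test. Ift172, a long peripheral subunit that links the train to its cargo, had log2 signals of 8.35 and 8.27 in KSP-positive cells, against 7.72 and 7.50 in KSP-negative cells. These did not overlap, and the difference was 0.70 (95% confidence interval -0.09 to 1.50, adjusted p = 0.343 from limma). Ift22, a small GTPase-like subunit of the core, had 7.73 and 7.82 in KSP-positive cells, against 7.34 and 7.02 in KSP-negative cells, a difference of 0.60 (adjusted p = 0.447). Ift74 and its tubulin-binding partner Ift81 differed from each other in pattern. Ift74 had 9.11 and 9.01 in KSP-positive cells, against 8.33 and 8.99 in KSP-negative cells, and Ift81 had 9.58 and 9.80, against 9.59 and 9.81. For Ift74 the KSP-negative replicate 2 nearly reached the KSP-positive arrays, and the difference was 0.40. For Ift81 the fractions covered nearly the same range, and the difference was -0.01 (95% confidence interval -0.76 to 0.73).

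Ift88, the subunit whose mutation gives the Oak Ridge polycystic kidney mouse, had the lowest difference of the set. Its log2 signals were 7.82 and 8.44 in KSP-positive cells, against 8.39 and 8.58 in KSP-negative cells, so the fractions overlapped, and the difference of -0.36 (95% confidence interval -1.19 to 0.47) did not pass the test (adjusted p = 0.684 from limma). That interval excludes a 2-fold rise but not a 2-fold fall. Ift57, which binds kinesin-2, was at 9.78 and 9.79 in KSP-positive cells, against 9.27 and 9.64 in KSP-negative cells, a difference of 0.33 with no overlap. Ift27, a Rab-like GTPase needed for the exit of the BBSome, showed a difference of 0.57 with overlapping fractions, at 8.70 and 9.26 in KSP-positive cells, against 7.92 and 8.90 in KSP-negative cells. Its other probe sets over the filter gave 0.67 (1424648_at) and -0.25 (1435736_x_at), both overlapping. The remaining 4 genes, Ift20, Ift46, Ift52 and Ift80, ran from -0.02 for Ift80 to 0.21 for Ift20, all with overlap. Ift20, which also works at the Golgi, and the core subunits Ift46 and Ift52 each had their highest array in KSP-positive replicate 2.

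IFT-A, which carries receptors into the cilium and drives the return journey, had 3 genes and a median of -0.07. Ift43 had log2 signals of 9.26 and 9.52 in KSP-positive cells, against 8.84 and 9.23 in KSP-negative cells, a difference of 0.35 (95% confidence interval -0.42 to 1.13, adjusted p = 0.66 from limma) with the nearest arrays almost touching. Ift122 and Ift140, the large core subunits, had differences of -0.07 and -0.21 on their brightest probe sets. On both of these, KSP-negative replicate 2 was the highest array and KSP-negative replicate 1 the lowest. The other Ift122 probe set over the filter, 1427239_at, ran the opposite way, at 0.32 without overlap. It did not pass the test over probe sets (adjusted p = 0.826). With the mean of its probe sets, Ift122 had a difference of 0.12. Ift140 stood at 8.91 and 8.97 in KSP-positive cells, against 8.77 and 9.54 in KSP-negative cells, so that the KSP-negative replicates lay further apart than the fractions did.

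The 5 motor genes had a median of 0.25, 1 of the 5 was higher without overlap, beside 24.4% of all genes, and 0 passed the test. Kif3a, a motor subunit of kinesin-2 whose loss from mouse kidney tubules gives cysts, had 9.60 and 9.11 in KSP-positive cells, against 8.72 and 8.76 in KSP-negative cells on its brightest probe set, 1449841_at. The fractions did not overlap, and the difference was 0.62 (95% confidence interval -0.16 to 1.41, adjusted p = 0.398 from limma). Its 4 probe sets did not run the same way. 1436560_at gave 1.09 (8.04 and 7.92, against 7.08 and 6.70) and 1420375_at gave 0.53, both without overlap. On 1455652_at the log2 signals were 7.80 and 7.39 in KSP-positive cells, against 8.25 and 8.00 in KSP-negative cells, a difference of -0.53, also without overlap and in the opposite direction. None of the 4 passed the test over probe sets, with adjusted p from 0.213 to 0.55, and which transcripts each probe set reads was not tested.

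Kif3b, the partner of Kif3a in the motor, was at 6.97 and 6.73 in KSP-positive cells, against 7.18 and 6.12 in KSP-negative cells, a difference of 0.20 with overlap, and its other probe sets over the filter gave 0.48 and -0.48. Kifap3, the accessory subunit that joins the motor to its cargo, had a difference of 0.25 (10.78 and 11.04, against 10.43 and 10.90). Its second probe set, 1417181_a_at, gave -0.38, and both overlapped. Kif7, a kinesin of the cilium tip that organises Hedgehog signalling, had 6.52 and 7.39 in KSP-positive cells, against 6.41 and 6.61 in KSP-negative cells, a difference of 0.44 that rested on KSP-positive replicate 2. Dync2h1, the heavy chain of the dynein that carries IFT trains back, had 8.05 and 7.57 in KSP-positive cells, against 8.04 and 7.70 in KSP-negative cells. Its fractions covered nearly the same range, and the difference was -0.06 (95% confidence interval -0.90 to 0.78, adjusted p = 0.958 from limma).

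**Figure D3:**
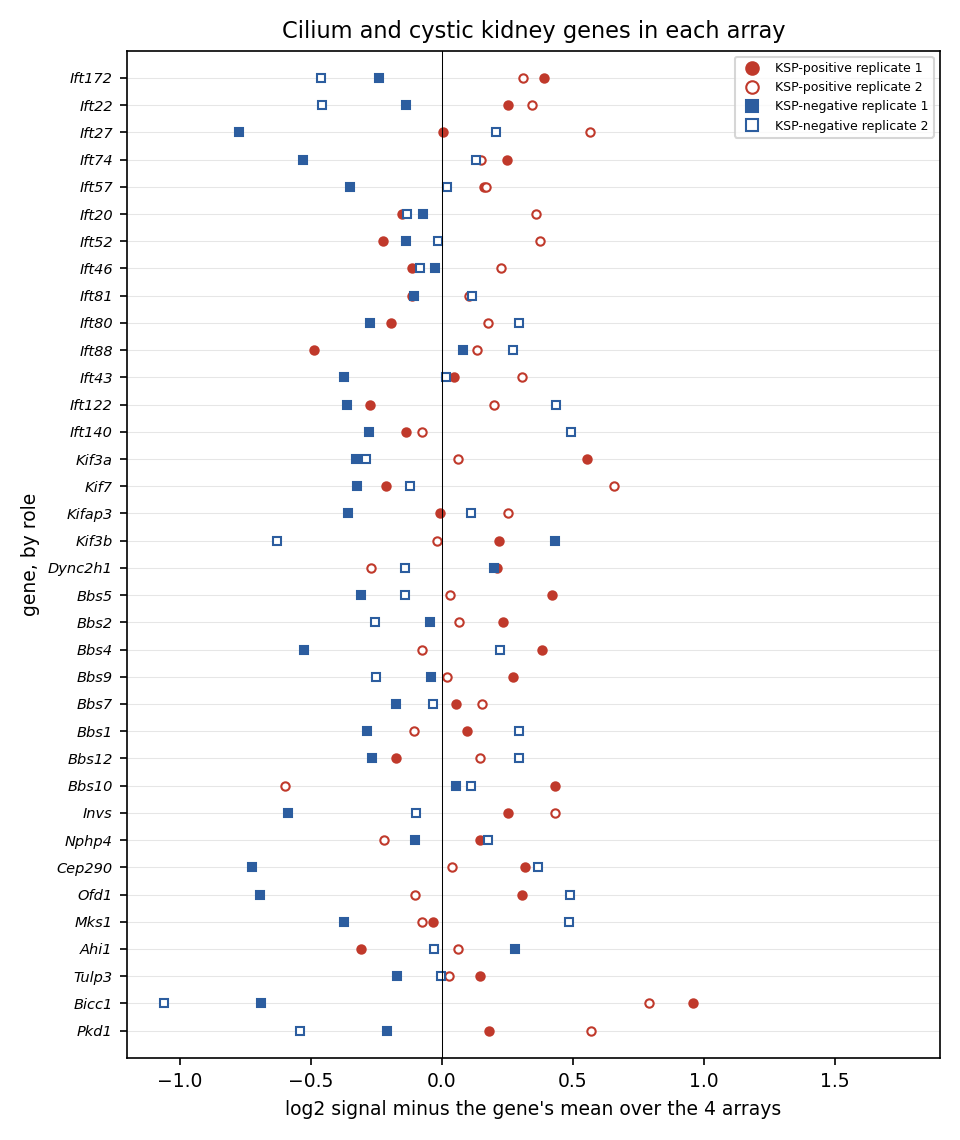
Log2 signal of each array minus the mean of the gene over the 4 arrays (horizontal axis) for the 36 genes tested, grouped by role, with red circles for KSP-positive and blue squares for KSP-negative arrays, filled for replicate 1 and open for replicate 2. In 14 genes both red points lie right of both blue points, and KSP-negative replicate 1 is the lowest array in 20 genes. Over all genes tested, KSP-negative replicate 1 is below KSP-negative replicate 2 in 63.0%.

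Of 8 Bbs genes tested, 6 encode subunits of the BBSome and Bbs10 and Bbs12 encode chaperonin-like proteins that help to assemble it. The group had a median of 0.25, with 4 of the 8 higher without overlap, beside 24.4% of all genes, and 0 past the test. Bbs5, a subunit that binds phosphoinositides, had log2 signals of 7.18 and 6.79 in KSP-positive cells, against 6.45 and 6.62 in KSP-negative cells, a difference of 0.45 (95% confidence interval -0.47 to 1.37, adjusted p = 0.634 from limma). Bbs2, Bbs7 and Bbs9, which sit together in the BBSome, also did not overlap, with differences of 0.30, 0.21 and 0.29. Bbs7 was at 6.61 and 6.71 in KSP-positive cells, against 6.38 and 6.52 in KSP-negative cells, and each of these sets of arrays spanned less than the interval of its difference (-0.72 to 1.14). Bbs1, the subunit that binds the GTPase of the coat, had a difference of -0.01 with overlap (7.05 and 6.85, against 6.67 and 7.25). Bbs4 had 0.30, -0.11, 0.21 and 0.07 on its 4 probe sets, all overlapping. The chaperonin genes stood at -0.17 for Bbs10 and -0.03 for Bbs12. Bbs10 had 6.52 and 5.49 in KSP-positive cells, against 6.14 and 6.20 in KSP-negative cells, so its KSP-positive replicates lay on either side of the KSP-negative ones. Its second probe set gave 0.66 with overlap.

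Nephronophthisis is a recessive cystic disease of the kidney in childhood. Invs encodes inversin, which marks a compartment of the proximal cilium and is faulty in its infantile form. It had log2 signals of 7.47 and 7.65 in KSP-positive cells, against 6.63 and 7.12 in KSP-negative cells, with no overlap and a difference of 0.69 (95% confidence interval -0.19 to 1.57, adjusted p = 0.408 from limma). Nphp4, a scaffold of the transition zone, had 6.39 and 6.02 in KSP-positive cells, against 6.14 and 6.42 in KSP-negative cells, a difference of -0.08 with overlap.

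The 4 transition zone and basal body genes tested had a median of 0.04, and in all 4 the fractions overlapped. Cep290, which bridges the microtubules and the membrane of the transition zone, had 8.00 and 7.72 in KSP-positive cells, against 6.96 and 8.05 in KSP-negative cells. The difference was 0.36 (95% confidence interval -0.61 to 1.32, adjusted p = 0.735 from limma), and the KSP-negative replicates were further apart than the means of the fractions. Ofd1, a centriole protein of the oral-facial-digital syndrome, followed the same order of arrays, with 9.38 and 8.97 in KSP-positive cells, against 8.38 and 9.56 in KSP-negative cells (difference 0.20). Mks1, of the Meckel syndrome complex, had -0.11 (5.71 and 5.67, against 5.37 and 6.23). Ahi1, which encodes jouberin, had -0.25 (7.73 and 8.10, against 8.32 and 8.01). In Cep290, Ofd1 and Mks1 the highest array was KSP-negative replicate 2 and the lowest KSP-negative replicate 1. The ratio of 3' to 5' signal of the actin control probe sets, a sign of RNA or labelling quality, was 2.92 and 1.80 in KSP-positive cells, against 1.79 and 3.55 in KSP-negative cells, and that of the Gapdh control probe sets 3.11 and 1.86, against 2.02 and 2.72. The actin ratio was highest in KSP-negative replicate 2, and the Gapdh ratio in KSP-positive replicate 1. The part of quality in these genes was not tested. Tulp3, an adaptor that works with IFT-A to bring receptors and polycystins into the cilium, had 9.48 and 9.36 in KSP-positive cells, against 9.16 and 9.33 in KSP-negative cells, a difference of 0.18 (adjusted p = 0.838 from limma) with the arrays just clear of each other. Its second probe set over the filter gave 0.63 with no overlap.

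Over the set, the 2 replicates of a gene differed by a median of 0.30 between the KSP-positive arrays and 0.34 between the KSP-negative arrays, whichever was higher. The replicate SD of the median log2 signal of the set was 0.11. KSP-negative replicate 2 exceeded replicate 1 in 25 of the 36 genes (69.4%, against 63.0% of all genes), and KSP-positive replicate 1 exceeded replicate 2 in 17 (47.2%, against 47.8%).

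Many cilium genes carry an X-box near their start, the site bound by RFX transcription factors, and the promoters of the set were searched for it. The motif was GTTNCC, then AT, then GGNAAC, which reads the same on both strands, with up to 2 mismatches among its 12 fixed letters, within 250 bases before and 50 after each start in RefSeq (GRCm38.p6). Of the 38 genes, 33 matched the promoter table, with 36 promoters. A match was present in 6 genes (18.2%), against 3.99% of 27025 genes, and in 7 promoters (19.4%), against 3.5% of 32851 promoters. They were Bbs7 and Mks1 with 1 mismatch and Ahi1, Bbs1, Ift22 and Ift57 with 2. The stretches around 4 of the matches upstream of a start are shown in the direction of the gene, to let the matched letters be compared between members of the BBSome, the transition zone and IFT-B. Capitals mark the match, at chr3:36613474-36613533 (minus strand) for Bbs7, chr11:87853168-87853227 (plus strand) for Mks1, chr5:136908094-136908153 (plus strand) for Ift22 and chr16:49699184-49699243 (plus strand) for Ift57.
Bbs7: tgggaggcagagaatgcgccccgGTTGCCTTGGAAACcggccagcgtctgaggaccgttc
Mks1: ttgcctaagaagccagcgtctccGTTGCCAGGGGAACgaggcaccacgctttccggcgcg
Ift22: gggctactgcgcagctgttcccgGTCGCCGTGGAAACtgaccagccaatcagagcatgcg
Ift57: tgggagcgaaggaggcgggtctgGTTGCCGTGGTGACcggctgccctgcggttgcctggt

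The match began 121 bases upstream of the start in Bbs7, 24 in Mks1, 33 in Ift22 and 87 in Ift57. The 6 genes with a match had differences from -0.25 (Ahi1) to 0.60 (Ift22), with a median of 0.10. The 26 tested genes whose promoters held none ran from -0.36 to 0.75, with a median of 0.27. Bicc1, Ift80, Ift81, Ift122 and Tmem67 had no promoter to search, so Bicc1, the only gene called, is outside this comparison. Ift22 and Mks1 are both in the first group, and the fractions were apart for Ift22 and overlapped for Mks1.

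Further genes of the cilium, 94 of them tested from 121 on 7 lists, gave 0 calls in either direction from limma, and before adjustment 5 had a p under 0.05 and a higher signal and 4 a lower one, beside 9.05% and 8.72% of all genes. Their median was 0.01, and the fractions were apart for 25 genes higher (26.6%) and 17 lower, beside 24.4% and 24.6% of all genes. The 14 other IFT and BBS subunits had a median of 0.26. Among them Ttc8, another BBSome subunit, had 8.56 and 8.46 in KSP-positive cells, against 8.21 and 7.72 in KSP-negative cells (difference 0.55, adjusted p = 0.481), and Ttc30b, an IFT-B subunit, had 0.94 with overlapping arrays (adjusted p = 0.358). The 7 other motor genes had a median of 0.07, with Wdr60 and Dync2li1, 2 further chains of the retrograde dynein, at 0.36 and 0.32. The 28 other transition zone and ciliopathy genes ran from -1.29 to 1.35. At the ends were Cep41, needed for tubulin glutamylation in the axoneme, at 1.35 (7.70 and 7.84, against 6.92 and 5.92, adjusted p = 0.135), and Alms1, the centrosomal gene of Alström syndrome, at -1.29 (5.47 and 5.33, against 6.88 and 6.50, adjusted p = 0.171). Neither passed the test.

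The 11 trafficking and signalling genes had a median of -0.03 and 0 past the test. Without overlap 2 were higher and 3 lower, beside 24.4% and 24.6% of all genes. The smallest p was that of Ehd3. Ehd3, a membrane-shaping ATPase of early ciliogenesis, had log2 signals of 9.21 and 8.48 in KSP-positive cells, against 7.74 and 7.19 in KSP-negative cells, a difference of 1.38 (adjusted p = 0.0961 from limma). Pde6d, which shuttles lipid-anchored proteins into the cilium, had 0.88 (adjusted p = 0.228). Among 19 basal body genes, with a median of -0.22, 4 were higher and 3 lower without overlap, beside the same 24.4% and 24.6% of all genes. Nin, which anchors microtubules at the centriole, had 9.23 and 7.54 in KSP-positive cells, against 7.14 and 7.41 in KSP-negative cells, so that its difference of 1.11 (adjusted p = 0.291 from limma) rested mostly on KSP-positive replicate 1. Pcm1, the scaffold of centriolar satellites, was at 0.78 (adjusted p = 0.279). Of the 9 other cystic kidney genes, Tsc2, the tuberous sclerosis gene, had 7.97 and 7.78 in KSP-positive cells, against 7.22 and 6.59 in KSP-negative cells (difference 0.97, adjusted p = 0.233), and Pkdcc, a secreted kinase listed with them by name, had 0.60 with overlap (adjusted p = 0.468).

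Cilium disassembly, the resorption that precedes cell division, had the lowest median of the cilium lists, -0.74 over 7 genes. In 5 of them both KSP-positive arrays lay below both KSP-negative arrays, where 24.6% of all genes did so, and 0 passed the test. Nek2, a centrosomal kinase, had log2 signals of 8.89 and 8.14 in KSP-positive cells, against 9.86 and 9.98 in KSP-negative cells, a difference of -1.40 (95% confidence interval -2.23 to -0.57, adjusted p = 0.0719 from limma). Plk1, a mitotic kinase that is also on the proliferation list, had 8.57 and 9.57, against 10.08 and 10.37 (difference -1.15, adjusted p = 0.155). Of 15 proliferation markers 0 passed the test, their median was -0.46, and their summed signal was 31470 and 33910 in KSP-positive cells, against 34820 and 55610 in KSP-negative cells. The part of proliferation in the disassembly genes was not tested.

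**Figure D4:**
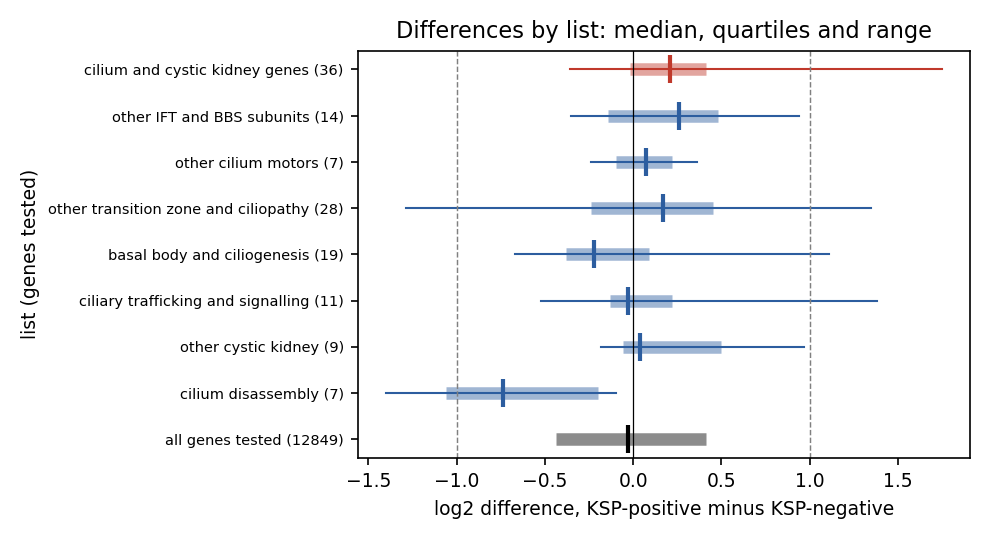
Log2 differences, KSP-positive minus KSP-negative, of the cilium and cystic kidney genes (red), of 7 further cilium lists (blue) and of all genes tested (black): ticks are medians, thick bars quartiles, thin lines the range (not drawn for all genes), dashed lines a 2-fold change, and the number of genes tested stands in brackets. The set has a median of 0.21, the disassembly list one of -0.74 and all genes one of -0.03.

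Motile cilia use the same IFT and BBS genes, so markers of multiciliated cells were read as well. Of 28 with a probe set, 13 passed the filter and 3 (Tekt2, Spag6 and Ccdc113) were at the floor in every array. Foxj1, the transcription factor that defines these cells, was under the filter, at 3.62 and 3.77 in KSP-positive cells, against 3.78 and 4.39 in KSP-negative cells. The summed signal of the list was 1379 and 1367 in KSP-positive cells, against 1418 and 2057 in KSP-negative cells. The single marker that fell was Myb (difference -2.62, adjusted p = 0.0333 from limma), a transcription factor that blood progenitors and other dividing cells use too, and 0 rose.

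**Figure D5:**
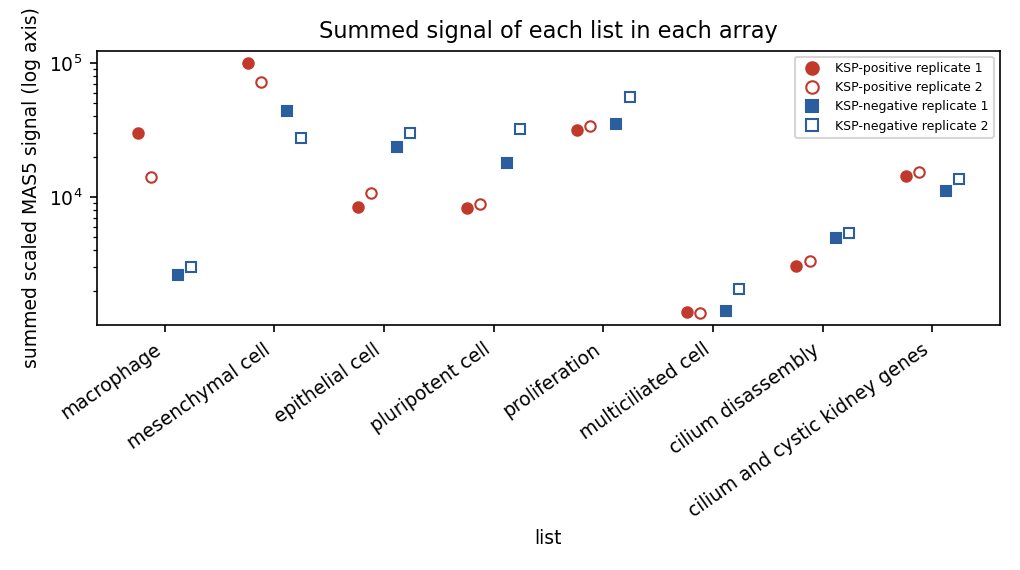
Summed scaled MAS5 signal (log axis) of 6 marker lists, of the cilium disassembly genes and of the cilium and cystic kidney genes in each array, with red circles for KSP-positive and blue squares for KSP-negative arrays, filled for replicate 1 and open for replicate 2. Macrophage and mesenchymal sums are higher in both KSP-positive arrays, and epithelial and pluripotent sums lower. The cilium and cystic kidney genes sum to 14440 and 15450 in KSP-positive cells, against 11000 and 13610 in KSP-negative cells. Of these sums Bicc1 alone gives 1400 and 1250, against 448 and 347. The median log2 signals of the set overlap, at 7.91 and 8.01 in KSP-positive cells, against 7.82 and 8.03 in KSP-negative cells.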

How the data were processed

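Total RNA of 2 KSP-positive and 2 KSP-negative samples was measured on Affymetrix arrays. The values deposited by the authors are MAS5 signal intensities on a linear scale, and the GeneSpring setting used by the authors is not given in the sources used here. Each array was scaled to a 75th percentile of 281, values under the 20th percentile (signal 12.3) were raised to it, and log2 was taken. A mean log2 signal over 5.14, the 40th percentile, was required of a probe set, and the brightest single-gene probe set stood for a gene. Of 45037 probe sets, 34945 have 1 gene symbol, 932 several and 9160 none in GEO's platform annotation, and 204 symbols were kept as listed. The 12849 genes were fitted with limma 3.58.1 in R 4.3.3 (a mean for each fraction, variances moderated by eBayes with a trend on intensity, two-sided p adjusted by Benjamini-Hochberg). The fit was tested on simulated data with normal noise and spreads drawn from its own variance model. Such data do not show how the fit handles arrays of uneven quality. The number of arrays limits the precision, and the actin control ratios show that RNA or labelling quality was uneven among them. The replicate numbers are tied to the experiments by no source, so arrays were not paired, and the p-values measure the spread between these arrays.

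The genes and lists were chosen with earlier results of these data known. All of the cilium and cystic kidney genes could be named, with every array for those past the test, 12 genes of disease or transport where measured, and the smallest p of each role. On the other cilium lists, up to 2 genes with the smallest p were named, and on the marker lists a few checks. Further genes whose arrays are given were chosen after their values were seen. Alternatives were other scalings, floors, filters, probe sets and variance models, the replicate number as a block, a t-test, and each array left out. Promoter sequences are from RefSeq (GRCm38.p6). Figures were drawn with matplotlib 3.10.9. Genes without a single-gene probe set are not analysed here.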

Additional observations from a re-analysis of the deposited data

How the results depend on the processing

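Of 480 single-gene values under the alternatives, the t-test aside, 474 kept their direction (or had overlapping fractions) and their side of the threshold. Another 5 were Bicc1 without its call (adjusted p up to 0.271 from limma), and 1 was reversed, Kif3a on probe set 1455652_at (-0.53). The t-test, which is not among these values, gave Bicc1 an adjusted p of 0.493. Leaving aside single probe sets, the sign changed in some alternative for 18 genes with overlapping fractions and for 0 of those without overlap. The count of cilium and cystic kidney genes that rose was 1, and 0 with the values as deposited, without a filter and by the methods' t-test. By that t-test 2 reached an unadjusted p under 0.05 with a higher signal and 0 with a lower one (666 and 570 of all genes), and 0 of all genes passed after adjustment. Without a filter 0 of all genes rose and 0 fell after adjustment in limma (1184 and 1091 at an unadjusted p under 0.05), and 3 cilium and cystic kidney genes were higher and 0 lower before it. With the values as deposited 352 of all genes fell, against 212. With each array left out in turn, the genes of the set that rose numbered 0 to 1 (0 without KSP-negative replicate 2), those over 2-fold higher 1 to 2 (the second was Ift27, at 1.06, without KSP-negative replicate 2), and the median ran from 0.09 to 0.30. Over all genes 166 to 412 rose and 104 to 504 fell, with 412 and 504 without KSP-positive replicate 2, 381 rises without KSP-negative replicate 1 and 104 falls without KSP-negative replicate 2. The cause was not tested. A lone array was assumed to vary like the other fraction.

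With a replicate block 571 of all genes rose and 560 fell, and of the cilium and cystic kidney genes still 1 and 0, with an adjusted p of 0.00301 for Bicc1. Same-numbered arrays deviated together weakly (correlation 0.166 across genes), and the numbers were not taken to pair the arrays. With 2 arrays a fraction, an interval of about 2-fold either way is usual, so smaller differences were not detectable for most genes even before adjustment. After adjustment many differences over 2-fold did not pass either. Over 2-fold higher and lower were 7.92% and 7.66% of all genes, while 1.84% rose and 1.65% fell at an adjusted p under 0.05 from limma.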
